A study of Mus musculus with 11 samples.

Results

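The control hearts of a mouse series on the nucleosome-binding protein HMGN5 were compared between birth and adulthood, as 3 adult and 2 newborn arrays out of 11 arrays in all. They were chosen by their titles alone, and the 2 newborn control arrays are all there are. All mice had a C57BL/6 background, and the total RNA came from the left ventricle by the series' design text and from heart by the sample labels. The controls were labelled wild-type, with no statement of whether they carried the floxed transgene or the cre recombinase, and age was given only as newborn or adult. The other 6 arrays, 3 adult and 3 newborn, came from mice with a floxed LacZ and Hmgn5 cDNA transgene under the CAG promoter, opened in the heart by cre under the alpha myosin heavy chain promoter. They enter here through the shared estimate of each gene's spread and in a closing comparison. The labels call the arrays of a group biological replicates and do not say whether any sample pooled animals.

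In the weeks after birth heart muscle cells of the mouse stop dividing, switch from fetal to adult isoforms of several contractile proteins, and move from glucose and lactate towards fatty acids as their main fuel. Calcium stores and the membrane systems that release them are built up over the same time, and imprinted growth genes such as Igf2 are shut down in many tissues. A left ventricle sample also holds endothelial cells, fibroblasts, mural cells, macrophages and covering epicardium, and in such bulk RNA fewer cells of a type and less RNA per cell cannot be told apart.

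Values are normalised log2 signals for 18194 genes, each read from 1 probe set. Over all genes, arrays of a pair correlated at 0.996 in newborn controls, at 0.983 to 0.991 in adult controls and at 0.942 to 0.948 across the ages. The median standard deviation of a gene was 0.18 in adult and 0.081 in newborn controls. The arrays also differed in ways that the labels do not name. Control probe sets for 18S ribosomal RNA read 10.09 and 10.53 in the newborn controls, 8.25 and 8.58 in adult replicates 1 and 2, and 11.89 in adult replicate 3. Ucp1, a gene of brown fat, was at 7.62 in replicate 3 and at 3.47 to 3.90 on the other 4 control arrays. By Xist and Eif2s3y, adult replicate 1 read as male, adult replicates 2 and 3 and newborn replicate 1 as female, and newborn replicate 2 was high for both transcripts (8.65 and 9.22). Any step of array handling that went with age cannot be told apart from it here. The part of sex in the results was not tested.

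From newborn to adult, 2718 genes rose (14.9% of all genes tested) and 3288 fell (18.1%), at a limma adjusted p under 0.05. With the added conditions of more than a 2-fold change and no overlap between the 3 adult and the 2 newborn arrays, 746 genes rose (4.10%) and 1396 fell (7.67%). More than 4-fold, under the same conditions, the counts were 164 rising and 327 falling, and more than 16-fold they were 9 and 47. Of the 746 rising genes 83 lay below the 40th percentile of the array in both newborn arrays, and of the 1396 falling genes 163 lay below it in all 3 adult arrays. A signal that low may be background, so for these genes, called dim at that age here, the fold can be understated. On all 5 control arrays 4123 genes lay below the 40th percentile, and 396 of them were called as rising and 49 as falling. Their median change was 0.18, against -0.01 for the other genes, so the count of rising genes includes many at low signal. The cause was not tested. The median change over all genes was 0.09 on the log2 scale. The arrays of the 2 ages did not overlap for 63.6% of all genes, so a lack of overlap alone says little here. Without newborn replicate 1 the counts were 1027 rising and 1802 falling, and without newborn replicate 2 there were 1455 rising genes; the remaining newborn array was then assumed to vary like the other groups.

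**Figure D1:**
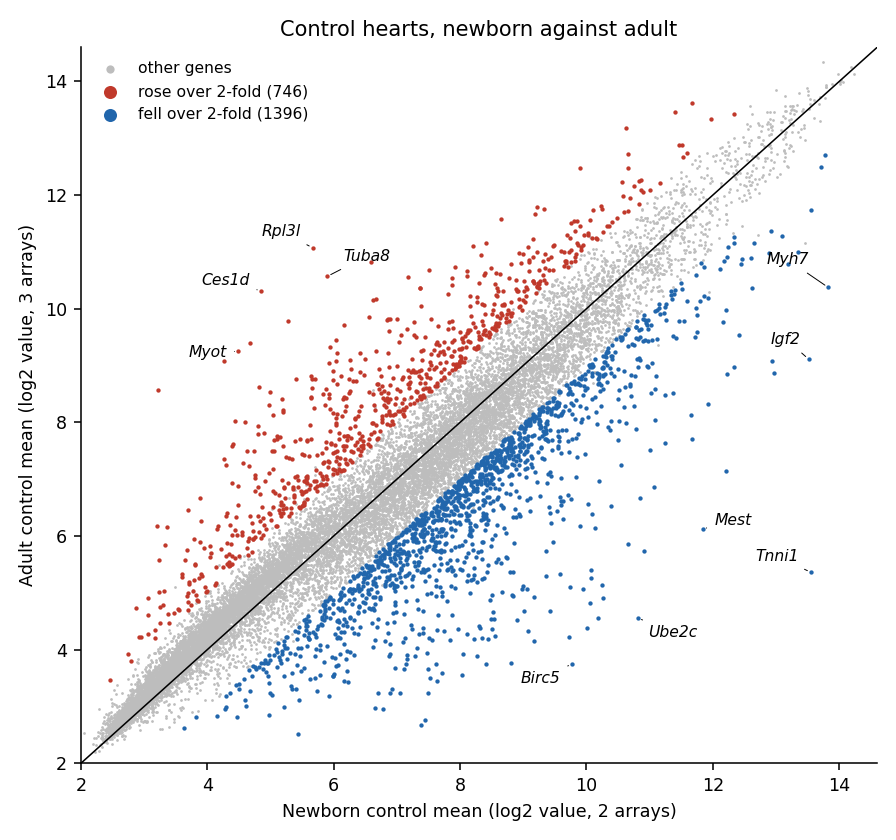
Each point is 1 gene, with its mean log2 value in the 2 newborn control arrays on the x axis and in the 3 adult control arrays on the y axis; the line marks equal values. Red and blue points are the 746 rising and 1396 falling genes that were called, changed over 2-fold and did not overlap between ages. Tnni1 lies farthest below the line, and Ces1d and Rpl3l lie farthest above it among the labelled genes.

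The largest fall among called genes was that of a contractile protein gene. Tnni1 encodes slow skeletal troponin I, the fetal inhibitory subunit of the thin filament. It read 13.55 on both newborn arrays and 5.18, 5.42 and 5.48 on the adult arrays. The fall was 8.19 on the log2 scale (SE 0.18, adjusted p = 1.75e-09), or 292-fold. Its adult counterpart Tnni3 was already at 13.52 in newborn replicate 1 and read 13.82, 13.87 and 13.77 in adults. That rise of 0.31 (SE 0.10, adjusted p = 0.0336) was not called when adult replicate 1, adult replicate 2 or either newborn array was left out (adjusted p 0.0594 to 0.148). Myh7, the slow beta myosin heavy chain, read 13.85 and 13.80 in newborns and 12.10, 9.45 and 9.58 in adults. All 3 adult arrays were lower, but replicate 1 stood well above the other 2, and the fall was 3.45 (SE 0.60, adjusted p = 0.00138). Myh6, the fast alpha chain of the adult mouse ventricle, read 13.89 to 14.16 on all 5 arrays and was not called (-0.005, adjusted p = 0.978). The highest signal of any probe set on an array was 14.21 to 14.37, so a change near that level can be understated.

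Of 19 fetal contractile isoforms and smooth muscle genes, 11 fell (57.9%, against 18.1% of all genes) and 0 rose, with a median change of -1.68. All 11 passed the stricter conditions. Smooth muscle alpha actin Acta2, which immature heart muscle also makes, fell by 2.41 (SE 0.23), the myosin light chain Myl9 by 4.11 (SE 0.26) and calponin Cnn1 by 4.00 (SE 0.22). Slow skeletal troponin T, Tnnt1, fell by 2.04 (SE 0.15). These smooth muscle genes are also made by vessel walls. Over the same interval 6 of 12 mural cell markers fell, but that list itself holds Acta2 and Cnn1. The source of these falls was not tested. The skeletal actin gene Acta1 read 10.78 and 10.83 in newborns and 11.52, 10.16 and 11.36 in adults, and it was not called (adjusted p = 0.629). It was called as rising by 0.63 when adult replicate 2 was left out (adjusted p = 0.0178).

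A list of 30 adult sarcomere genes also held Rpl3l, a muscle-specific ribosomal protein gene. In it 10 rose (33.3%, against 14.9% of all genes) and 0 fell, with a median of 0.21. Without Rpl3l 9 of 29 rose (31%), a count that still includes the nonmuscle gene Myh14. The 20 members not called include the core filament genes Myl2 (a difference of 0.08), Myl3 (-0.07) and Actc1 (-0.11), whose signals were also near the top of the array's range. Myotilin, Myot, a Z-disc protein that bundles actin, read 4.78 and 4.20 in newborns and 9.72, 9.17 and 8.86 in adults. Its rise was 4.76 (SE 0.41, adjusted p = 1.36e-05), or 27.1-fold. Telethonin, Tcap, which caps titin at the Z-disc, rose from 10.70 and 10.61 to 12.80, 13.10 and 12.26, by 2.06 (SE 0.21). The nonmuscle myosin Myh14 rose by 3.09 (SE 0.28) and leiomodin Lmod2, which nucleates actin filaments, by 1.51 (SE 0.25). Without adult replicate 3, 3 members of this list fell.

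**Figure D2:**
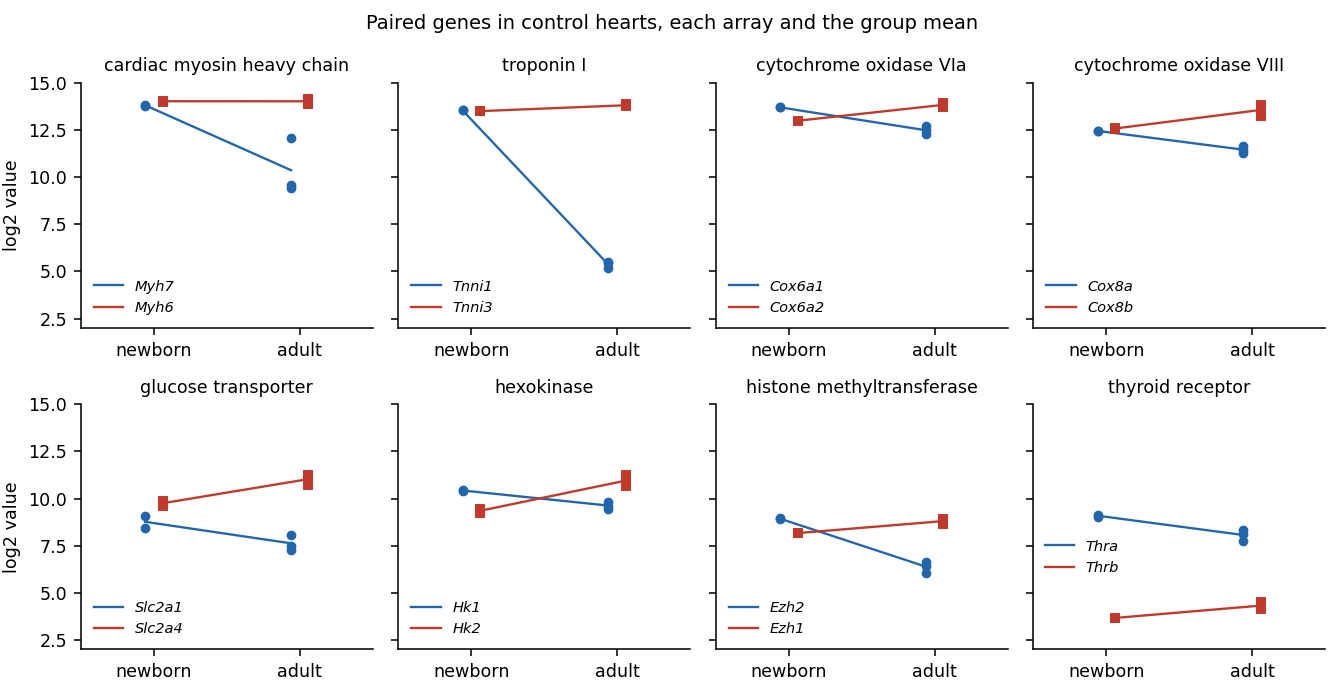
Each panel shows 1 pair of related genes in control hearts, with log2 value on the y axis and age on the x axis; points are single arrays (2 newborn, 3 adult) and lines join group means. Tnni1 fell from 13.55 to between 5.18 and 5.48 while Tnni3 stayed above 13.4. In the metabolic and chromatin pairs shown, one gene fell as the other rose. The panels are a selection, and other metabolic pairs did not exchange in this way. Ckb fell (-1.87) while Ckm was not called (-0.06), and Pgam1 fell (-0.84) while Pgam2 was not called (-0.21).

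Genes of cell division were far lower in the adult hearts. Of 41 genes of the cell cycle and mitosis 35 fell (85.4%, against 18.1%), 0 rose, and the median change was -3.31. Ube2c, the ubiquitin-conjugating enzyme of the anaphase-promoting complex, read 10.99 and 10.64 in newborns and 4.93, 4.20 and 4.54 in adults, a fall of 6.26 (SE 0.30, adjusted p = 2.54e-07). Survivin, Birc5, of the chromosomal passenger complex, went from 9.78 and 9.77 to 4.06, 3.44 and 3.75, a fall of 6.02 (SE 0.37) to a dim adult signal. The mitotic kinase gene Cdk1 went from 10.31 and 10.20 to 5.45, 4.98 and 5.00, a fall of 5.11 (SE 0.45). In each of the 3 genes the newborn and adult arrays lay far apart. Cyclin B2 (Ccnb2) fell by 5.63, the abscission protein Cep55 by 5.04 and the spindle kinase Aurka by 4.15 (both dim in adults), and the proliferation marker Mki67 by 4.81. Outside the list, the Cdk1 partner Cks2 fell by 5.19 and the kinetochore subunit Spc25 by 5.02. The 6 members not called were Cenpf, Mybl2 and, among regulators of entry into S phase, Ccne1 (-0.37), Ccne2 (-0.06), Ccnd1 (-0.96) and E2f1 (-0.34).

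Mitotic genes are classically repressed in resting cells through an element called CHR, read by the DREAM complex, whose core letters are TTTGAA. RefSeq promoters (GRCm38.p6, 250 bases before to 50 after the start) were searched for these letters on both strands. They occurred in 21 of the 32 cell cycle promoters given (65.6%), against 15.7% of the promoters of all genes tested, 18.9% of those that fell over 2-fold and 15.1% of those that rose over 2-fold. The windows of 5 mitotic genes that fell are shown so that the letters can be seen in place, printed 5′ to 3′ on the gene's strand with the matched letters in capitals (TTCAAA is the match on the opposite strand).
Ccnb2: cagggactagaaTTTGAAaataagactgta
Ube2c: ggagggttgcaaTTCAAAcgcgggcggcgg
Cdk1: ctgattggctccTTTGAAcgtctacgtgca
Cdc20: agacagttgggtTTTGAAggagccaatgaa
Top2a: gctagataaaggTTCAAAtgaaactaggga
They lie at chr9:70421704-70421733 (Ccnb2), chr2:164769888-164769917 (Ube2c), chr10:69352966-69352995 (Cdk1), chr4:118437344-118437373 (Cdc20) and chr11:99024195-99024224 (Top2a), on the minus strand except for Ube2c on the plus strand. The match began 18 to 29 bases before the start in Ube2c, Cdc20 and Top2a, 71 bases before it in Cdk1 and 167 in Ccnb2, and Top2a held a further match 179 bases before its start. A match is a run of letters and not a measured binding site.

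DNA replication genes were lower as well. Of 43 genes 30 fell (69.8%), 0 rose, and the median was -1.01. Rrm2, the regulated subunit of ribonucleotide reductase that makes DNA precursors, read 9.67 and 9.78 in newborns and 4.57, 4.14 and 3.97 in adults, a fall of 5.50 (SE 0.21, adjusted p = 6.58e-08) to a dim adult signal. Thymidine kinase Tk1 fell by 3.13 (SE 0.30), the licensing factor Cdt1 by 2.95 (SE 0.22) and the helicase subunit Mcm6 by 2.67 (SE 0.23). All 7 of the Mcm genes measured fell, from 0.72 (Mcm10) to 2.67. Members that were not called include the origin recognition gene Orc1 (0.25) and the polymerase alpha subunit Pola1 (0.09).

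S phase genes are known targets of E2F factors. Their letters were searched as TTTCCCGC, TTTGGCGC, TTTCGCGC or TTTGCCGC on both strands; matches can overlap each other, as in Mcm5 and Mcm6, and TTTGAA overlapped none of them. They stood in 15 of 35 replication promoters (42.9%), against 3.81% of all promoters, 7.40% of those that fell over 2-fold, 2.04% of those that rose over 2-fold and 2 of 32 cell cycle promoters (6.25%). The TTTGAA letters, in turn, stood in 5 of 35 replication promoters (14.3%). Of the promoters with E2F letters, 4 that belong to falling genes are shown with that of Orc1, which holds the letters and was not called.
Mcm6: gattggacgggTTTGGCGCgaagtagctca
Mcm5: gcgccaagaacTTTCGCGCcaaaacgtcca
Mcm7: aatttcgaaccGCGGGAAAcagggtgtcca
Uhrf1: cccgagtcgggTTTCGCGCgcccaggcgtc
Orc1: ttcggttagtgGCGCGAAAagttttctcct
The windows are chr1:128359734-128359763 (Mcm6, minus strand), chr8:75109345-75109374 (Mcm5, plus), chr5:138172030-138172059 (Mcm7, minus), chr17:56304117-56304146 (Uhrf1, plus) and chr4:108579416-108579445 (Orc1, plus). The genes changed by -2.67, -2.55, -1.92, -2.97 and 0.25. The promoters of Pola1 (0.09) and Gins3 (-0.26), also not called, held the letters too. The letters thus stood before genes that fell and before genes that were not called. Mcm5 and Mcm6 held further matches not shown.

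Tubulins and centrosome genes fell in 16 of 25 cases (64.0%) and rose in 3, and without newborn replicate 1 the falls were 9. Stathmin, Stmn1, which destabilises microtubules, fell by 3.35 (SE 0.33) and the spindle protein Tacc3 by 2.61 (SE 0.17). The rising members were Pcnt (0.61, not called without adult replicate 2 or 3 or either newborn array, adjusted p 0.0699 to 0.167) and a pair of alpha tubulin isotypes. Tuba8 read 5.99 and 5.81 in newborns and 10.49, 11.03 and 10.19 in adults, a rise of 4.67 (SE 0.34, adjusted p = 4.26e-06), and Tuba4a rose by 2.56 (SE 0.25). Of 20 cell cycle inhibitors 7 fell and 1 rose. Cdkn2d fell by 1.77 (SE 0.17) and Cdkn1c, which is imprinted, by 1.52 (SE 0.30). The rising gene was cyclin G1, Ccng1, a p53 target, by 1.82 (SE 0.13).

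**Figure D3:**
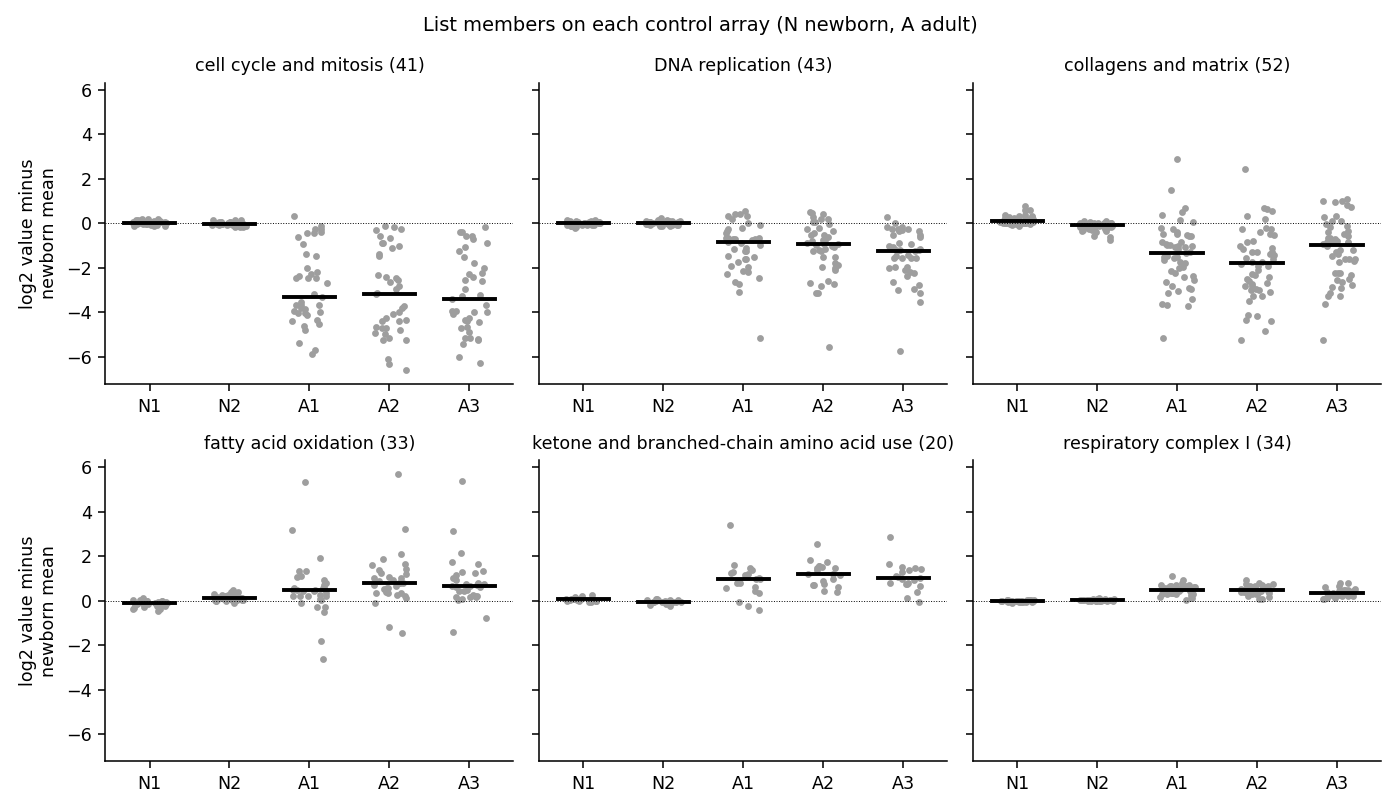
Each grey point is 1 member of a gene list on 1 control array, as its log2 value minus the mean of the 2 newborn arrays (y axis); N1 and N2 are newborn, A1 to A3 adult replicates, and black bars are medians. All 3 adult arrays show the cell cycle, replication and matrix lists lower and the ketone and branched-chain list higher, while the complex I members lie close to the newborn level, with mean changes of 0.13 to 0.81.

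Most genes of fatty acid use were higher in the adult hearts. Of 33 genes of fatty acid uptake, storage and oxidation 20 rose (60.6%, against 14.9%) and 2 fell, with a median of 0.67; without newborn replicate 1, 11 rose. The largest rise among called genes with a gene name was that of Ces1d, a carboxylesterase that hydrolyses stored triglyceride. It read 4.36 and 5.34 in newborns and 10.17, 10.53 and 10.24 in adults, a rise of 5.47 (SE 0.27, adjusted p = 2.67e-07), or 44.2-fold. The lipid droplet protein gene Plin5 read 7.23 and 7.80, then 10.68, 10.71 and 10.65, a rise of 3.17 (SE 0.19). Dgat2, of triglyceride synthesis, rose by 2.04 (SE 0.26), the inner carnitine palmitoyltransferase Cpt2 by 1.64 (SE 0.19), the dienoyl-CoA reductase Decr1 by 1.39 (SE 0.16) and the trifunctional protein subunit Hadhb by 1.09 (SE 0.13). The uptake protein gene Cd36 rose by 1.37. The liver form of the outer carnitine palmitoyltransferase, Cpt1a, went from 9.06 and 9.50 to 7.45, 7.81 and 8.48. Its fall of 1.36 (SE 0.35, adjusted p = 0.0135) was not called without newborn replicate 2 (-1.15, adjusted p = 0.105). The other falling member, the thioesterase Acot1, fell by 1.75 (SE 0.48, adjusted p = 0.0185) and was not called without adult replicate 1 (adjusted p = 0.0529) or newborn replicate 2 (adjusted p = 0.142).

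Ketone and branched-chain amino acid genes rose in 17 of 20 cases (85.0%), with 0 falling and a median of 1.10. Bdh1, which begins the use of ketone bodies in mitochondria, read 6.25 and 5.74 in newborns and 9.37, 8.53 and 8.83 in adults, a rise of 2.91 (SE 0.31, adjusted p = 5.36e-05). The next enzyme of that route, Oxct1, rose by 1.15 (SE 0.12). Along branched-chain breakdown, the transaminase Bcat2 rose by 0.69, the dehydrogenase subunits Bckdha and Dbt by 1.29 and 1.45, isovaleryl-CoA dehydrogenase Ivd by 1.37 and the phosphatase Ppm1k, which activates the dehydrogenase, by 1.34. The propionate end of the route rose as well, with Pcca up by 1.62 (SE 0.12) and methylmalonyl-CoA mutase Mmut by 1.36 (SE 0.13). Members not called were Bckdhb (0.32), the inactivating kinase Bckdk (0.01) and Pccb (0.03).

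Complex I genes of the respiratory chain changed by small amounts. Of 34 complex I genes 22 rose (64.7%) and 0 fell, with a median of 0.43 and a range over all members of 0.13 to 0.81. None of the 34 changed by 2-fold. Ndufv3 read 12.57 and 12.65 in newborns and 13.53, 13.35 and 13.38 in adults, a rise of 0.81 (SE 0.11, adjusted p = 0.000292). The count rested on small differences, and was 4 without newborn replicate 1, 8 without newborn replicate 2 and 14 without adult replicate 1. In complexes II to V 10 of 40 rose (25%) and 3 fell (7.5%), with counts of 3 to 6 rising when any 1 control array was left out. Cytochrome oxidase showed exchanges between paralogs. The widely expressed subunit genes Cox6a1 and Cox8a fell by 1.22 (SE 0.14) and 1.00 (SE 0.18), and the muscle forms Cox6a2 and Cox8b rose by 0.84 (SE 0.12) and 0.99 (SE 0.19). Cox7a1, the muscle form of subunit VIIa, rose from 11.92 and 12.03 to 13.41, 13.32 and 13.28, by 1.37 (SE 0.14), while Cox7a2 did not pass (0.06, adjusted p = 0.662).

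Around the citrate cycle 11 of 30 genes rose (36.7%) and 2 fell, with 6 rising when either newborn array was left out and 7 without adult replicate 2. Malic enzyme Me3 rose by 2.35 (SE 0.19) and the mitochondrial pyruvate carrier Mpc1 by 0.90 (SE 0.12). Pyruvate dehydrogenase kinases restrain glucose use, and they did not move together. Pdk3 read 8.67 and 8.77 in newborns and 5.66, 5.66 and 5.60 in adults, and fell by 3.08 (SE 0.12, adjusted p = 7.33e-08). Pdk4, which fasting induces, read 9.65 and 10.47 in newborns and 10.22, 11.30 and 12.28 in adults, so the ages overlapped and the difference of 1.21 (SE 0.60, adjusted p = 0.14) was not called. It was called without adult replicate 1 (1.73, adjusted p = 0.0436).

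Glycolysis genes split, with 9 of 29 rising (31.0%, against 14.9% of all genes) and 6 falling (20.7%, against 18.1%). Their median was 0.10, close to that of all genes. The insulin-responsive transporter Slc2a4 rose from 9.90 and 9.61 to 10.71, 11.23 and 11.16, by 1.28 (SE 0.23). The fetal transporter Slc2a1 fell from 9.10 and 8.44 to 8.09, 7.49 and 7.30, by 1.14 (SE 0.31, adjusted p = 0.0174), and was not called without adult replicate 2 (adjusted p = 0.051) or newborn replicate 1 (-0.81, adjusted p = 0.19). Of the hexokinases, Hk1 fell by 0.80 (SE 0.14; not called by the mean of its probe sets, adjusted p = 0.0724) and Hk2 rose by 1.61 (SE 0.20). Of the phosphofructokinases, the platelet gene Pfkp fell by 1.21 (SE 0.12) and the muscle gene Pfkm rose by 1.05 (SE 0.17). Aldolase C, Aldoc, fell by 3.04 (SE 0.21), and phosphorylase kinase Phkg1, dim in newborns, and glycogen phosphorylase Pygm rose by 2.80 and 0.98.

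In the shuttling of high-energy phosphate, 7 of 20 genes rose and 3 fell. The mitochondrial creatine kinase Ckmt2 read 11.67 on both newborn arrays and 13.44, 13.81 and 13.62 in adults, a rise of 1.95 (SE 0.14, adjusted p = 3.75e-06). Brain-type Ckb fell by 1.87 (SE 0.27), whereas muscle-type Ckm, at 13.11 and 13.16 in newborns, was not called (-0.06). Among 28 metabolic regulators 10 rose (35.7%) and 2 fell, with 5 and 4 rising without newborn replicates 1 and 2 and 6 without adult replicate 2. The retinoid X receptor gene Rxrg rose from 5.21 and 5.60 to 8.60, 9.00 and 8.66, by 3.35 (SE 0.18), and the muscle regulator Perm1 by 1.53 (SE 0.22). The thyroid hormone receptors diverged, with Thra down by 1.03 (SE 0.21) and Thrb up by 0.65 (SE 0.15, adjusted p = 0.00788; 0.0639 without newborn replicate 1). Thrb had low signal, at most 4.48 on a control array.

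**Figure D4:**
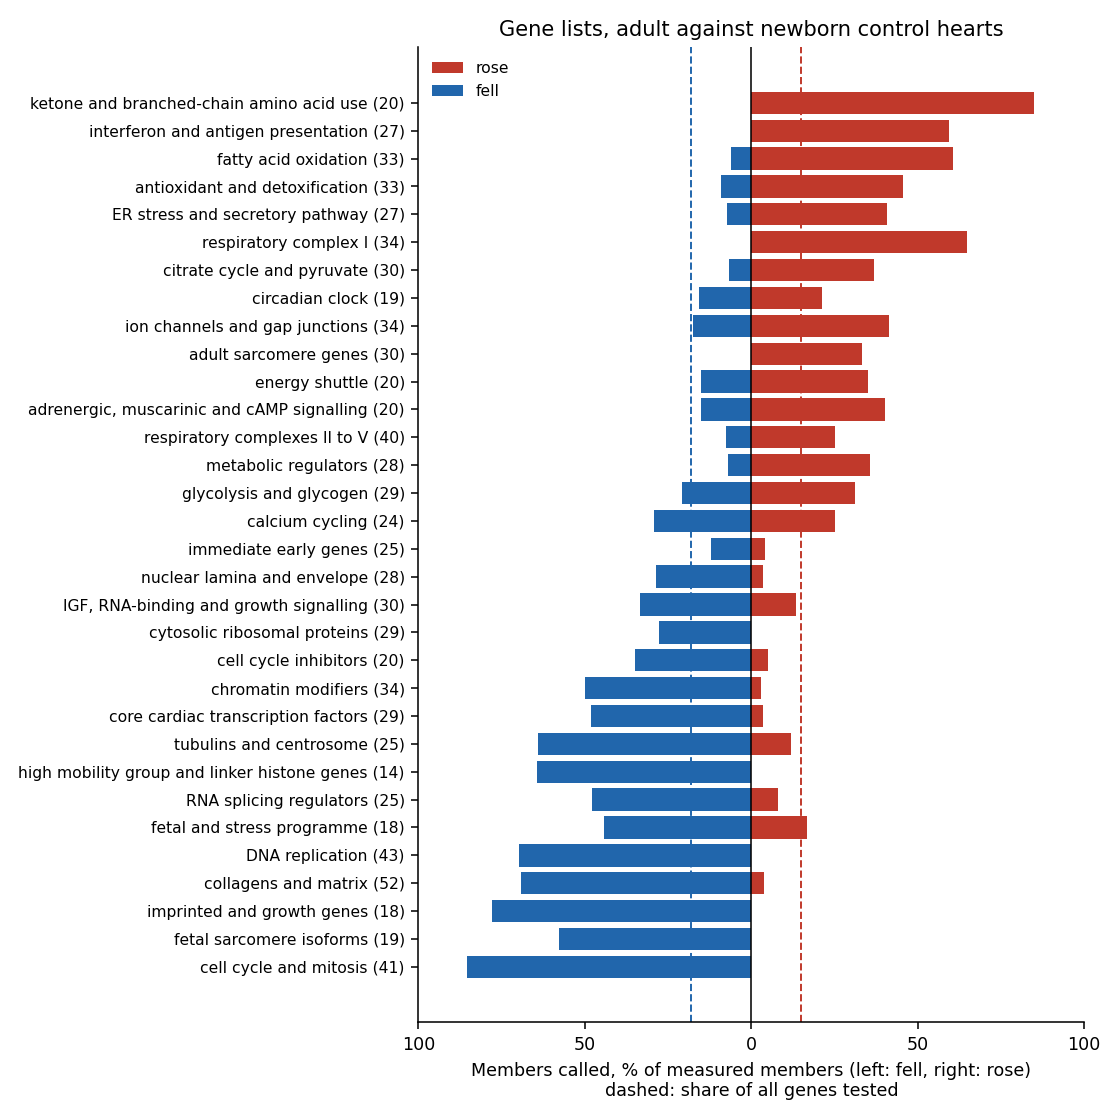
Bars give, for each of 32 gene lists, the percentage of its measured members that rose (right, red) or fell (left, blue) from newborn to adult, with the number measured in brackets and lists ordered by median change. Dashed lines mark the 14.9% and 18.1% of all genes that rose and fell; the cell cycle list reached 85.4% fallen and the ketone and branched-chain list 85.0% risen.

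Calcium cycling genes were divided, with 6 of 24 rising (25%, against 14.9% of all genes) and 7 falling (29.2%, against 18.1%). Their median was -0.18. The central pump and channel genes Atp2a2 (0.12), Ryr2 (-0.03) and Casq2 (-0.01) were not called. Hrc, a calcium-binding protein of the sarcoplasmic reticulum, read 9.85 and 9.96 in newborns and 12.46, 12.48 and 12.49 in adults, a rise of 2.57 (SE 0.11, adjusted p = 1.31e-07). The S100 protein gene S100a1, which binds the release channel, rose by 1.40 (SE 0.17) and the counter-ion channel Tmem38a by 1.23 (SE 0.15). The sodium-calcium exchanger Slc8a1, fell from 8.28 and 8.13 to 6.84, 6.98 and 6.57, by 1.41 (SE 0.17). The falls in the list were 3 and 4 without newborn replicate 1 and 2 in turn.

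Of 34 ion channel and gap junction genes 14 rose (41.2%; 9 without newborn replicate 1) and 6 fell (17.6%). The T-type calcium channel Cacna1h of immature muscle fell from 7.12 and 7.37 to 4.83, 5.06 and 5.46, by 2.13 (SE 0.20). The L-type channel Cacna1c fell as well (-1.43). By the mean of its probe sets the Cacna1c change was -0.89 and not called (adjusted p = 0.101). The potassium channel subunit Kcne1 fell from 10.88 and 10.70 to 8.07, 8.71 and 6.88, by 2.90 (SE 0.60). The transient outward potassium current is a mark of the mature mouse ventricle. Of its genes, Kcnd2 rose from 6.31 and 6.29 to 8.07, 8.76 and 9.35, by 2.43 (SE 0.35), Kcnd3 by 1.66, and the accessory Kcnip2 by 1.17 (SE 0.19), while Kcna4 was not called (-0.24). The sodium channel subunit Scn4b rose by 1.89 (SE 0.19). Gap junction genes differed by member, with Gjc1 down by 1.28 (SE 0.11) and the main ventricular connexin Gja1 not called (-0.06). Of 20 adrenergic, muscarinic and cAMP signalling genes 8 rose (40%) and 3 fell. Without newborn replicates 1 and 2 in turn, 2 and 2 rose and 0 and 1 fell, and without adult replicate 3, 5 fell.

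Imprinted growth genes were lower in the adult hearts. Of 18 imprinted and growth genes 14 fell (77.8%), 0 rose, and the median was -1.57. Mest read 11.92 and 11.76 in newborns and 6.50, 5.92 and 5.95 in adults, a fall of 5.72 (SE 0.38, adjusted p = 1.98e-06). Igf2, the fetal growth factor, read 13.54 and 13.49, then 8.57, 9.13 and 9.64, a fall of 4.40 (SE 0.25), and Dlk1, Plagl1 and Peg3 fell by 3.87, 3.86 and 3.48. The clearance receptor gene Igf2r, itself imprinted, fell by 1.67. Of 30 genes of growth signalling 10 fell (33.3%) and 4 rose, with 1 and 2 rising without newborn replicates 1 and 2. Igf1r fell by 1.97 (SE 0.29), the neuregulin co-receptor Erbb2 by 1.76 (SE 0.16) and Igf1 by 1.80 (SE 0.34), and the growth factor Fgf1 rose by 2.21 (SE 0.17). By the mean of its probe sets the Igf1 change was -0.91 and not called (adjusted p = 0.0632).

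Of 29 cardiac transcription factors 14 fell (48.3%) and 1 rose (3.45%; 0 when adult replicate 1 or 2 or either newborn array was left out). Hey2, a Notch target of the compact ventricular wall, went from 8.53 and 8.42 to 4.70, 5.21 and 4.71, a fall of 3.60 (SE 0.20, adjusted p = 7.55e-07). Irx4 fell by 1.61, Gata6 by 1.58, Tbx20 by 1.29 (not called by the mean of its probe sets, adjusted p = 0.0674), Nkx2-5 by 0.88 and Gata4 by 0.79, while Tbx5 (-0.24), Hand2 (-0.33) and Mef2c (0.37) were not called. Without newborn replicate 2, 8 fell.

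Chromatin genes fell in 17 of 34 cases (50%) and rose in 1, with 8 falls when either newborn array was left out and 10 without adult replicate 1. The paired Polycomb methyltransferases changed in opposite directions. Ezh2, the form of dividing cells, fell from 8.95 and 8.92 to 6.65, 6.06 and 6.45, by 2.55 (SE 0.23), and Ezh1, the form of resting cells, rose from 8.17 on both arrays to 8.84, 8.93 and 8.65, by 0.64 (SE 0.13, adjusted p = 0.00325). The hydroxylase Tet1 fell by 2.43 (SE 0.35), the maintenance methyltransferase Dnmt1 fell by 1.32 and the de novo methyltransferase Dnmt3a fell by 1.46. Among 14 high mobility group, linker histone and variant histone genes 9 fell (64.3%) and 0 rose. Hmgb2, which is high in dividing cells, read 11.05 and 11.09 in newborns and 7.01, 7.00 and 6.56 in adults, a fall of 4.21 (SE 0.18). Hmgn3 fell by 2.07 (SE 0.33) and Hmgn1 by 0.64, and Hmgn5 itself was not called (-0.25). The B-type lamin gene Lmnb1 fell by 2.24 (SE 0.18) and the lamina-associated gene Tmpo by 1.68 (SE 0.13).

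Splicing regulators fell in 12 of 25 cases (48%) and rose in 2, and fell in 7 without newborn replicate 1. The rises were 1 without adult replicate 3 or newborn replicate 1 and 0 without newborn replicate 2. Ptbp1, a repressor of many tissue-specific exons, fell by 1.12 (SE 0.13), but by the mean of its probe sets its change was -0.27 and not called (adjusted p = 0.0763). Mbnl3 fell by 1.85 (SE 0.25). The muscle splicing factor Rbfox1 went from 7.29 and 7.10 to 8.28, 8.97 and 9.14, a rise of 1.60 (SE 0.37, adjusted p = 0.00779; 0.0583 without newborn replicate 2). Ribosomal protein genes fell in 8 of 29 cases (27.6%) by at most 0.61 among called members, in 5 cases without adult replicate 3, and in 0 and 1 cases without newborn replicates 1 and 2. Rpl3l, a muscle-specific paralog of ribosomal protein L3, read 5.66 and 5.67 in newborns and 10.60, 11.51 and 11.11 in adults, a rise of 5.41 (SE 0.25, adjusted p = 1.6e-07), or 42.4-fold.

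Among stress defence genes, 15 of 33 antioxidant and detoxification genes rose (45.5%) and 3 fell (1 and 0 without newborn replicates 1 and 2). Glutathione transferase Gstk1 rose from 8.22 and 8.18 to 11.23, 11.30 and 10.79, by 2.90 (SE 0.18), and the epoxide hydrolase Ephx2 by 1.75 (SE 0.21). In the secretory pathway 11 of 27 genes rose (40.7%), with the chaperone Hspa5 up by 1.22 (SE 0.12) and Dnajb9 by 1.39 (SE 0.18); 6 rose without newborn replicate 1. Of 18 genes of the fetal and stress programme 8 fell (44.4%; 4 without newborn replicate 1) and 3 rose (1 without newborn replicate 2). The natriuretic peptide gene Nppa read 13.55 and 13.54 in newborns and 12.02, 11.21 and 12.01 in adults, a fall of 1.80 (SE 0.21), whereas the titin-associated ankyrin repeat gene Ankrd23 rose by 2.46 (SE 0.17). Of 19 circadian genes 4 rose (21.1%, against 14.9% of all genes) and 3 fell (15.8%, against 18.1%), shares near those of all genes. Only 2 rose without adult replicate 1 or 2, and fewer genes were called when either newborn array was left out. The hour of collection was not given.

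Extracellular matrix genes were lower in the adult hearts. Of 52 genes 36 fell (69.2%), 2 rose (3.85%), and the median was -1.42. Fibrillin 2, Fbn2, of developing elastic fibres, read 9.95 and 10.16 in newborns and 4.90, 4.80 and 4.79 in adults, a fall of 5.22 (SE 0.17, adjusted p = 2.46e-08). Tenascin C fell by 3.89 (Tnc), elastin by 3.69 (Eln), fibronectin by 3.60 (Fn1, SE 0.34) and the crosslinking enzyme Lox by 2.91. The collagen gene Col1a1 went from 11.31 and 11.17 to 8.2, 6.42 and 8.31, a fall of 3.60 (SE 0.46), with adult replicate 2 the lowest. The rising members were the inhibitor of matrix proteases Timp4 (2.10, not called without adult replicate 1 or 2 or newborn replicate 2, adjusted p 0.0525 to 0.167) and decorin. Decorin, Dcn, rose by 0.83 (SE 0.20, adjusted p = 0.00989; 0.0805 without newborn replicate 2, and 0.0706 by the mean of its probe sets). The source of these changes among cell types was not tested. Of 15 fibroblast markers, a list that also holds Col1a1 and Dcn, 6 fell and 3 rose. The mean log2 value of that list was 9.802 and 9.679 in newborns and 9.13, 8.69 and 9.52 in adults.

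Markers of the covering epicardium fell in 11 of 12 cases (91.7%), with a median of -1.76. Mesothelin, Msln, went from 7.38 and 7.33 to 4.40, 4.05 and 4.36, a fall of 3.09 (SE 0.23) to a dim adult signal, and the uroplakin Upk3b fell by 2.96 (SE 0.33). The member not called was Muc16 (-0.69). Of 20 endothelial markers 5 fell (25%, against 18.1% of all genes) and 2 rose (10%, against 14.9%), shares not far from those of all genes. The tight junction gene Cldn5 fell by 1.72 (SE 0.15) and the water channel Aqp1 rose by 1.31 (SE 0.19). The falls numbered 3 without either newborn array. Among the mural markers the adhesion gene Mcam fell by 2.07 (SE 0.18) and the channel gene Kcnj8 rose by 0.68 (SE 0.13).

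Macrophage markers rose in 11 of 17 cases (64.7%, against 14.9% of all genes), and the median was 1.31. The 1 member that fell, Mertk (-0.38), was not called without adult replicate 2 or 3 or either newborn array (adjusted p 0.0752 to 0.185). Their mean log2 value was 6.77 and 6.43 in newborns and 8.00, 7.71 and 7.66 in adults. The scavenger receptor gene Cd163 read 5.43 and 3.70 in newborns and 7.71, 6.95 and 7.21 in adults, a rise of 2.73 (SE 0.44, adjusted p = 0.000838). The complement genes C1qa, C1qb and C1qc rose by 1.76, 1.47 and 1.71, and the receptor gene Csf1r by 1.68. Genes of interferon response and antigen presentation rose in 16 of 27 cases (59.3%), with 0 falling and a median of 0.86. The class II genes H2-Aa, H2-Ab1 and Cd74 rose by 3.42 (SE 0.49), 3.10 (SE 0.53) and 2.97 (SE 0.33), and H2-Aa read 5.96 and 6.11, then 10.22, 9.03 and 9.11. The interferon-inducible GTPase Iigp1 rose from 6.76 and 6.58 to 10.08, 10.06 and 10.37, by 3.50 (SE 0.18). Macrophages are among the cells that make class II genes, and the part of that cell type in these rises was not tested.

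Lymphoid markers rose in 9 of 14 cases, but by little and at low levels. Their median was 0.57, 5 of the 14 were below the 40th percentile of every control array, and only 1 passed the stricter conditions. The rises called numbered 0 without adult replicate 1, 3 without adult replicate 2 and 0 without newborn replicate 1 or 2. The 4123 genes below the 40th percentile on all 5 control arrays had a median change of 0.18, against -0.01 for the others. Neural and Schwann cell markers rose in 6 of 10 cases, led by the Schwann cell cadherin Cdh19, dim in newborns and up by 2.06 (SE 0.29), and dopamine beta hydroxylase Dbh of sympathetic nerves, up by 1.48 (SE 0.23). Without newborn replicate 1, 2 members of the list rose.

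Atrial genes were read as a check of the labelled left ventricle. The atrial light chain genes Myl4 and Myl7 read 13.09 and 13.07, and 13.45 and 13.46, in newborns. In adults Myl4 read 10.30, 10.45 and 12.03 and Myl7 read 10.25, 10.60 and 12.59, with replicate 3 the highest in both. Neither was called (adjusted p = 0.0588 and 0.105), and both were without adult replicate 3 (-2.71, adjusted p = 0.0285, and -3.03, adjusted p = 0.0474). In all, 4 of 12 atrial markers fell (6 without adult replicate 3) and 1 rose, and 4 of 8 ventricular markers fell. Atrial tissue in the samples was not measured in any other way. Skeletal muscle markers had 0 of 12 called, at mean log2 values of 4.40 to 4.63, and thymus and lung markers had 1 and 1 of 9 called. Among 8 adipocyte markers 3 rose (0 and 1 without newborn replicates 1 and 2), and Adipoq read 7.89 in adult replicate 3, against 4.20 and 4.64 in the other adults.

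Several of the steepest risers belonged to no list. Asb14, Asb15 and Asb5 encode substrate adaptors of ubiquitin ligases, with ankyrin repeats and a SOCS box, that are found mainly in striated muscle. Asb14 read 5.41 and 5.15 in newborns and 9.57, 10.02 and 9.74 in adults. Its rise of 4.50 (SE 0.28) was joined by rises of 4.24 (SE 0.46) in Asb15 and 3.55 (SE 0.50) in Asb5. The noncoding transcript Plet1os rose by 5.35 (SE 0.38), from 3.32 and 3.12 to 9.15, 8.83 and 7.73. It was dim in newborns, where the signal may be background, so its fold can be understated. The membrane protein gene Smco1 rose by 3.81 (SE 0.27), the ADP-ribosyltransferase Art1 by 3.53 (SE 0.26), Lrrc27 by 3.53 (SE 0.35) and the secreted phospholipase Pla2g5 by 3.42 (SE 0.32). Among fallers outside the lists, the small X-linked genes Bex4, dim in adults, and Bex1 fell by 5.62 (SE 0.19) and 5.05 (SE 0.67), and the transcriptional co-regulator Cited1 by 5.35 (SE 0.28), from 10.35 and 10.16 to 4.85, 5.20 and 4.65.

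The same interval in the 6 hearts labelled transgenic, which share no array with the controls, gave 3579 rising and 3582 falling genes (19.7% each). Of the genes that rose in controls 1746 also rose there (64.2% of the control list and 48.8% of the transgenic list), and of those that fell 2565 also fell (78.0% and 71.6%). The opposite call was made in transgenic hearts for 8 of the control risers and 28 of the control fallers. Tested directly, the change differed between the genotypes for 125 genes (0.687% of all), of which 43 rose and 49 fell in controls. Tnni1 fell by 8.19 in controls and fell by 7.79 in transgenic hearts, and that difference was not called (-0.40, SE 0.24, adjusted p = 0.678).

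Of the 43 control risers among the 125 genes, 37 rose less or fell in transgenic hearts, and of the 49 control fallers 46 fell less or rose. The other 33 genes were not called in controls and were all called in transgenic hearts, 29 of them with the more positive change there. Sorting genes by their control call favours a smaller transgenic change, so these counts give no general direction. Ces1d rose by 5.47 in controls, but in transgenic hearts it read 5.32, 5.11 and 5.26 in newborns and 7.17, 6.88 and 6.43 in adults, a rise of 1.60. The difference was 3.87 (SE 0.37, adjusted p = 0.0017). Nppa fell by 1.80 in controls. In transgenic hearts it read 13.83, 13.82 and 13.70 in newborns and 14.18, 14.05 and 14.06 in adults. That change of 0.31 was not called (adjusted p = 0.20), and the values lay near the top of the array's range. The difference between the genotypes in the Nppa change was -2.12 (SE 0.28, adjusted p = 0.00875). Postn, a matrix protein of activated fibroblasts, fell by 3.38 in controls and was not called in transgenic hearts (-0.35), a difference of -3.04 (SE 0.52, adjusted p = 0.0287). The inward rectifier subunit Kcnj3 rose by 1.40 in controls and fell by 0.97 in transgenic hearts, a difference of 2.37 (SE 0.29, adjusted p = 0.00713). Nppa and Kcnj3 are both on the atrial marker list. The atrial light chain gene Myl7 read 10.25, 10.60 and 12.59 in control adults and 10.54, 6.58 and 6.62 in transgenic adults. The part of atrial tissue in these differences was not tested. The count of 125 moved widely when control arrays were left out, to 202 and 59 without adult replicates 1 and 2 and to 6 and 35 without newborn replicates 1 and 2.

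**Figure D5:**
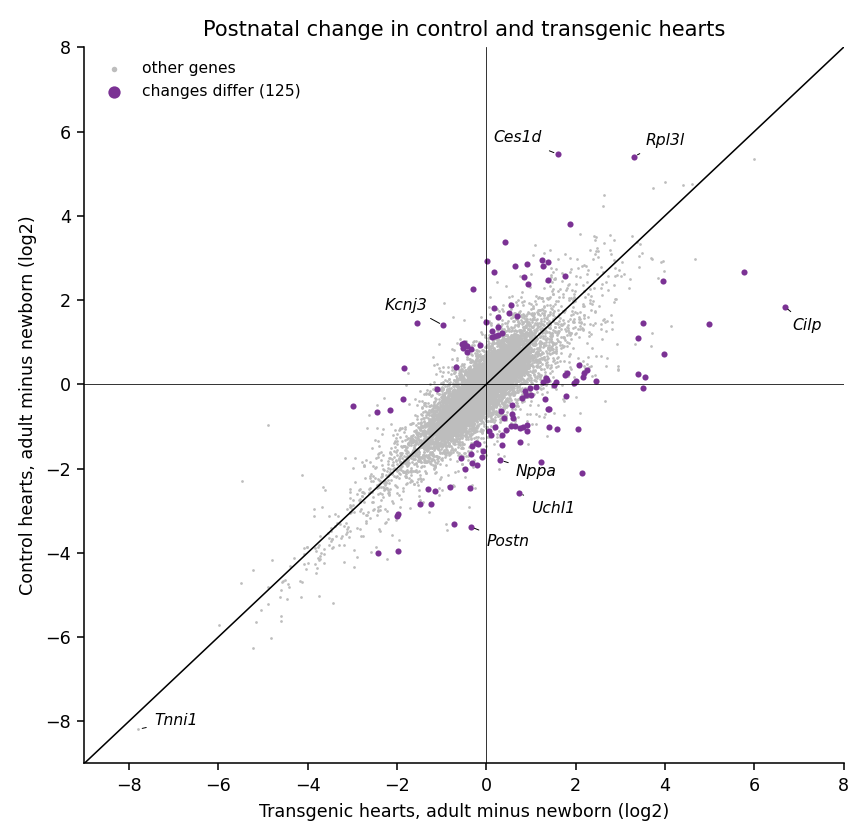
Each point is 1 gene, with its adult minus newborn change (log2) in transgenic hearts on the x axis and in control hearts on the y axis; the line marks equal changes. Purple points are the 125 genes whose change differed at an adjusted p under 0.05, among them Ces1d and Rpl3l above the line and Nppa, Postn, Uchl1 and Cilp below it.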

How the data were processed

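Gene expression was measured on Affymetrix mouse expression arrays; the submitters' processing notes name the tools RMA, affy and limma, with neither version nor role. The deposited values are log2 signals of 45101 probe sets, with array medians of 5.12 to 5.18, which would hide a change shared by most transcripts. Genes were named from the platform annotation, which is of older date: 34958 probe sets had 1 symbol, 932 several and 9211 none listed. Each gene took its single-symbol probe set with the highest mean over 11 arrays, leaving 18194 genes, and no level is compared between probe sets.

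The 4 group means were estimated together from the 11 arrays in limma 3.58.1 (R 4.3.3), with 7 residual and 3.85 prior degrees of freedom. The spread is thus shared, although it was larger among adult than newborn arrays. Tests were 2-sided, adjusted by Benjamini-Hochberg over all genes and called under 0.05; each adjusted p is limma's. Changes are adult minus newborn means of log2 values with limma's standard error. The 95% interval reached a median of 0.365 to each side, and the number of arrays limits the precision.

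The members, the 48 gene lists and the tests were chosen with earlier results of these data known. Named are the 14 rising and 14 falling called, non-overlapping genes with the largest fold (clone names passed over: 3 rising), isoform pairs, and per list up to 6 called members in the main direction and 3 in the other by smallest p; other list members were named after their values were seen. Alternatives cover scaling, filters, probe set choice, variance model, 18S signal and left-out arrays. Promoter sequences are RefSeq's, GRCm38.p6.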

Additional observations from a re-analysis of the deposited data

Results flagged for a closer look

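The postnatal change differed between control and transgenic hearts, by a test of the difference itself, for 125 of 18194 genes. Values here are the control change minus the transgenic change on the log2 scale. Of the 125 genes, 44 were more positive and 81 more negative in controls, and only a selection is listed. Other genes with large differences are left out, such as Ano10 (2.96), Ttll1 (2.91), Lgals3 (-4.25), Itgbl1 (-3.55) and Apod (-3.10). More positive in controls were Ces1d (3.87), Kcnj3 (2.37), Rpl3l (2.10), Smco1 (1.94), Gstk1 (1.52), Mmut (1.11), Mccc2 (0.94), Pcca (0.92), Hspa5 (0.87) and Hrc (0.80). More negative in controls were Cilp (-4.84), Uchl1 (-3.32), Postn (-3.04), Mfap4 (-2.67), Ccn2 (-2.43), Nppa (-2.12), Krt18 (-1.72), Cnn1 (-1.59), Ankrd23 (-1.50), Pfkp (-1.32) and Pdk3 (-1.11). No group of control arrays has the 4 samples that a search for single outlying arrays needs.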

How the results depend on the processing

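Rising and falling genes numbered 2718 and 3288. They numbered 4332 and 4165 with array weights, 4327 and 3797 with the 18S set as a factor, 4300 and 3957 without that set, 431 and 884 in a test against a 1.5-fold change, and 4206 and 5143 over all probe sets. Rising genes were 45.3% of calls, and became the larger side with array weights (51.0%), the 18S factor (53.3%), without the 18S set (52.1%) and with the mean of probe sets (2897 and 2877, 50.2%). Leaving out 1 control array gave 1027 to 2887 rising and 1802 to 3067 falling genes, the lowest without newborn replicate 1. With either newborn replicate left out, 1 newborn array remains. Why the counts were lowest without newborn replicate 1 was not tested. The 125 genes whose change differed between genotypes numbered 841 with array weights, 494 and 711 with the 18S set as a factor and without it, 9 against a 1.5-fold change and 6 to 202 when 1 control array was left out; the alternatives for this count were chosen after seeing the data. The cause was not tested. Deviations of same-numbered adult and newborn controls correlated at -0.01 to 0.03, and those of differently numbered ones at -0.03 to 0.03. With 2 newborn arrays the deviations from their mean mirror each other, so these values cannot show whether the numbers pair samples. Across genotypes a number could share a trait, since replicate 3 had the highest 18S signal in control adults (11.89) and in transgenic adults (12.18). What the numbers stand for was not stated. With the replicate block 2833 genes rose and 3197 fell, and 126 differed. Cyclic loess, a common median, the filter on dim genes, the mean of probe sets, a variance trend and a fit of the 5 control arrays kept both counts within 1.5 times. The genes behind the counts changed more. Of the main calls, 78.7% were made the same way with cyclic loess, 81.7% with the mean of probe sets, 82.3% with the 5 control arrays and 96.4% with the variance trend. Of 319 named genes called, 167 kept the same call in every setting. With the mean of probe sets 2 changed sign and were not called, Rps4x (0.0047, adjusted p = 0.981) and Txnrd1 (0.1408, adjusted p = 0.485). The median change of all genes, 0.09, was 0.11 with the block and 0.12 with the 18S factor.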
